A study of Homo sapiens
Mus musculus with 3 samples.

Results

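The human cytosolic ribosomal protein genes were followed here as a set of 39 genes, taken by Ensembl identifier from the 32738 human genes of the read count tables, which listed 60736 human and mouse genes in all. The set belongs to the RPL, RPS, RPLP and RPSA families. The tables and the reference used here pair no identifier with a gene symbol, so the members are named by identifier and no single protein is named. All 39 were read in every library, the fewest reads of any member in the larger group of human wells of a library being 1507, and all 39 passed the filter on low counts.

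Ribosomal proteins assemble with ribosomal RNA into the small and the large subunit of the ribosome, which reads messenger RNA and joins amino acids into protein. Their messenger RNAs are short, polyadenylated and among the most abundant of dividing cells, so they make up a visible share of any library primed at the poly(A) tail. The human genome also holds many processed pseudogenes of these genes. Reads that fit a gene and a near-identical copy cannot always be told apart, so the level of any single member carries that uncertainty.

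The samples were 3 libraries made on the ICELL8 cx, which dispenses cells into nanowells and barcodes the transcripts of each well at the 3′ end. The cells were mixed in equal parts from the human T-cell leukemia lines Jurkat and TALL104 and the mouse lines EL4 (a T lymphoma) and IVA12 (a hybridoma), and no treatment is given in the labels. The 3pDE group, made with the official kit, had 2 libraries, and the 3pDEUMI group had 1, made with a modified protocol in which unique molecular identifiers (UMIs) can be counted. One cell mixture gave 3pDE library 2 as well as the 3pDEUMI library, and another gave 3pDE library 1, so that 3pDE library 2 can be set against the 3pDEUMI library within a mixture. Nothing states that the mixtures came from separate cultures, so p-values measure only the spread between these libraries.

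The tables held 35581264 and 109702878 gene-assigned reads in the 3pDE libraries and 44883618 in the 3pDEUMI library. Wells with under 10% of reads from the other species were called human, which gave 533, 484 and 557 human wells. Clustering these wells without the 39 genes gave 2 clusters, which cannot be named after the human lines because no marker could be looked up. Human cluster 1 held 406, 448 and 528 wells, with a median of 25801, 36444.5 and 17468.5 human reads per well, and human cluster 2 held 127, 36 and 29 wells, with a median of 4493, 9277 and 4808. Pairs of libraries shared 469 to 539 well barcodes.

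The ribosomal protein genes took up a much larger share of human reads in the 3pDEUMI library than in the 3pDE libraries. In cluster 1 they held 8.31% of human reads in 3pDE library 1, 8.48% in 3pDE library 2 and 15.6% in the 3pDEUMI library. The 3pDE libraries thus lay within a narrow range (8.40% ± 0.125, SD, n = 2) and the 3pDEUMI library lay 7.25 percentage points above their mean, a ratio of 1.86. With 2 libraries against 1, an exact permutation test cannot give a p below 0.333, so the share itself was not tested. Counted as UMIs in the same wells, the share was 17.0%.

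The shift was seen across the wells and did not rest on a few of them. The median well of cluster 1 gave 8.17% of its human reads to the 39 genes in 3pDE library 1, 7.97% in 3pDE library 2 and 14.99% in the 3pDEUMI library. The highest 3pDE well reached 13.5%, and 369 of the 528 wells of the 3pDEUMI library (69.9%) lay above it. The distributions of wells therefore overlapped only in part, as the plot of shares per well shows.

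**Figure D1:**
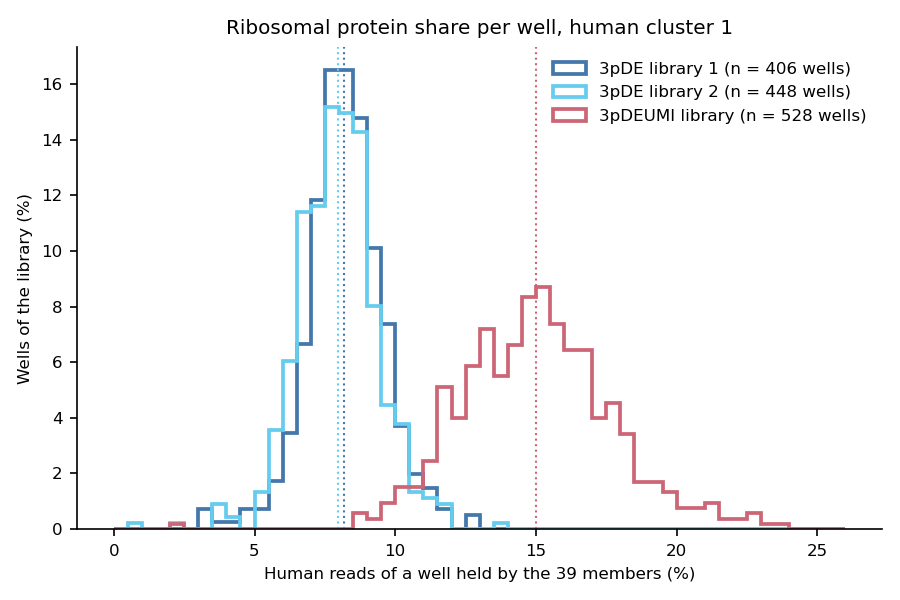
Share of a well's human reads held by the 39 ribosomal protein genes (x axis, %) in cluster 1 wells, with the share of the library's wells on the y axis (%) in bins of 0.5 percentage points; dotted lines mark the medians of 8.17%, 7.97% and 14.99%. The 2 3pDE libraries lie on top of each other and the 3pDEUMI library lies to their right, with a broader spread.

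Within a library, the share moved with depth and with reads of the other species by less than the gap between protocols. When cluster 1 wells were ranked by depth, the share rose from 7.95% in the shallowest to 8.42% in the deepest wells of 3pDE library 1, from 7.82% to 8.58% in 3pDE library 2 and from 14.8% to 16.0% in the 3pDEUMI library, in 3 groups of wells per library. In wells with under 1% of mouse reads the share was 8.50%, 8.99% and 15.8%, against 8.05%, 7.99% and 15.5% in the others. In 3pDE library 2 the 64 purer wells had a median of 178510 human reads, against 26444.5 in the other 384. Depth and purity were thus not separated there. The groups of wells of the 3pDEUMI library stayed above those of the 3pDE libraries in each of these divisions.

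Human reads outside cluster 1 showed the same order of the protocols. In cluster 2 the 39 genes held 7.79%, 6.60% and 13.2% of human reads. Among the few human reads found in mouse wells the 39 genes held 7.84%, 8.72% and 16.7%, so the 3pDEUMI library was the highest there too. These reads come from the same 3 libraries and are not a separate observation of the protocols. Their origin was not tested. Within a library, the levels of the 39 members in mouse wells and in human wells went together, with a Pearson correlation across genes of 0.93 in 3pDE library 1, 0.97 in 3pDE library 2 and 0.96 in the 3pDEUMI library; the genes are not independent replicates.

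Members differed widely in level within each library. Levels are given as CPM, the reads of a gene per 1000000 human reads summed over the wells in question, not divided by transcript length, so they are read shares and do not rank the genes by transcript number. In cluster 1 the levels ran from 148 to 7495 in 3pDE library 1 (50.6-fold), from 199 to 8320 in 3pDE library 2 (41.8-fold) and from 474 to 10421 in the 3pDEUMI library (22.0-fold). The spread between members was thus narrower in the 3pDEUMI library. The 5 members with most reads held 34.8%, 36.6% and 25.4% of the reads of the set.

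Over the 3 libraries, the highest mean levels were those of ENSG00000137154, ENSG00000164587, ENSG00000231500, ENSG00000105372 and ENSG00000177954. ENSG00000137154 was read at 5151, 5634 and 10421 CPM in 3pDE library 1, 3pDE library 2 and the 3pDEUMI library. ENSG00000231500 was read at 5423, 5707 and 7191 CPM. In both genes the 3pDEUMI library was the highest, whereas ENSG00000164587 and ENSG00000105372 led the 3pDE libraries and were far lower in the 3pDEUMI library. The lowest mean levels were those of ENSG00000156482 (148, 202 and 515 CPM), ENSG00000134419 (205, 199 and 968), ENSG00000166441 (582, 556 and 634), ENSG00000186468 (294, 488 and 1610) and ENSG00000229117 (455, 537 and 1507).

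The 2 3pDE libraries gave much the same level for each member, although they came from different mixtures. The absolute log2 difference between them had a median of 0.15 over the 39 genes and was largest, at 0.73, in ENSG00000186468. Across the genes their levels had a Pearson correlation of 0.98, while the 3pDEUMI library correlated with them at 0.55 and 0.57. These correlations describe 39 genes of 3 libraries and carry no test.

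**Figure D2:**
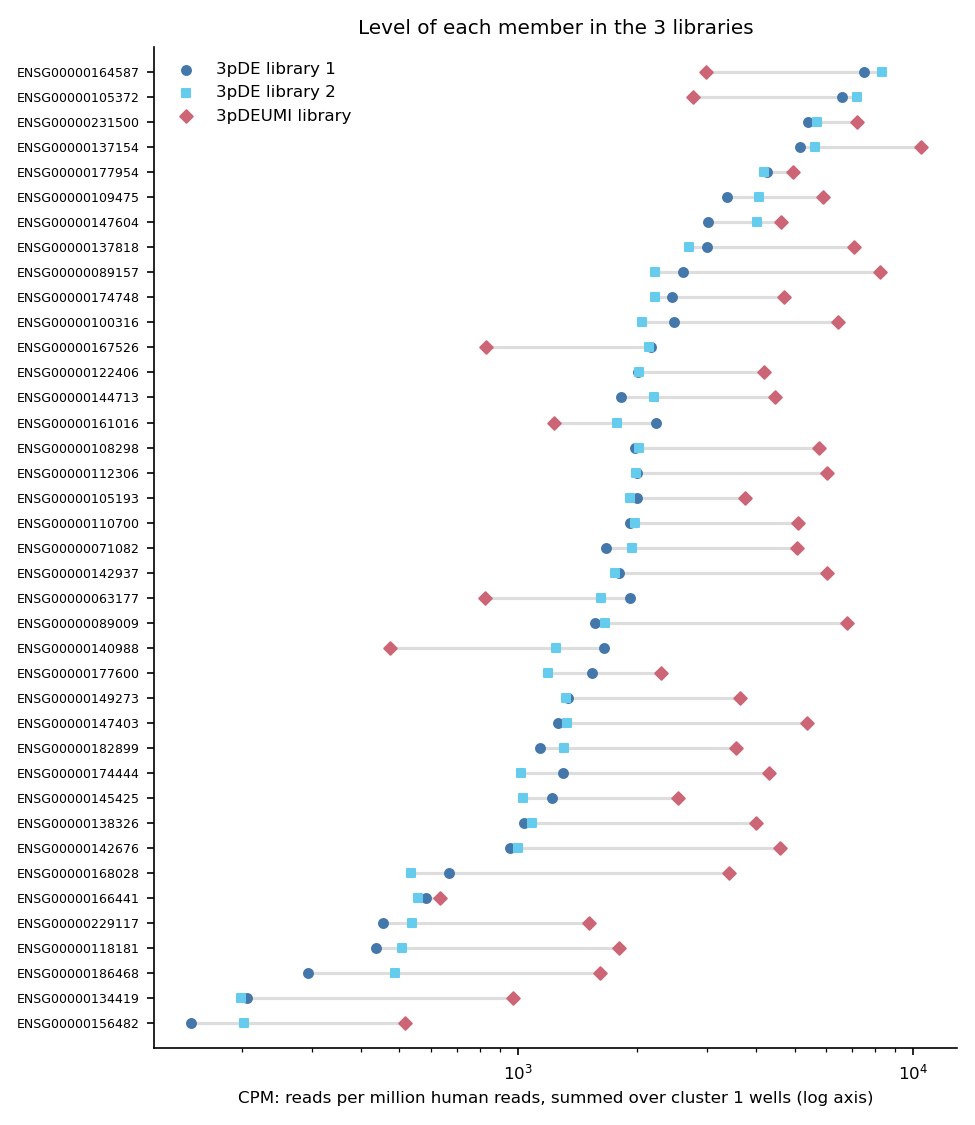
Level of each of the 39 members (y axis, Ensembl identifiers ordered by the mean 3pDE level) in CPM summed over cluster 1 wells (x axis, logarithmic), with 1 point per library. The 2 3pDE points nearly coincide for most members, and the 3pDEUMI point lies to their right for 33 members and to their left for 6.

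The comparison of the protocols sets the ribosomal protein levels of the official kit beside those of the modified protocol, in the same mix of lines. With 1 3pDEUMI library, a difference of protocol cannot be told apart from a difference of that library. In cluster 1, 29 of the 39 members were higher in the 3pDEUMI library and 5 were lower at an adjusted p under 0.05 in edgeR's quasi-likelihood test, and 5 did not pass. Over all 13729 human genes tested, 5.31% were called higher and 7.14% lower, against 74.4% and 12.8% of the members. Abundant genes were called more often, since among the 1672 other genes at a mean of at least 100 CPM 13.4% were called higher and 19.0% lower. The members' median log2 change was 1.54, against -0.11 over all genes tested.

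No member of the set lay between the 2 3pDE libraries in the 3pDEUMI library. Of the 39, 33 were above both and 6 were below both. The 33 together held 6.10% and 6.26% of human reads in the 3pDE libraries and 14.7% in the 3pDEUMI library, while the 6 held 2.20% and 2.23% and then 0.911%. Both groups were formed from these values, so their sums describe how the set's share was made up and test nothing. Measured against each 3pDE library alone, the log2 change of a member differed by a median of 0.18 and by at most 0.79, and no member changed its direction within the shared mixture.

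By reads, ENSG00000168028 showed the largest rise, with 666 and 535 CPM in the 3pDE libraries and 3403 in the 3pDEUMI library. Its log2 change was 2.65 ± 0.25 (SE; adjusted p = 6.21e-05 in edgeR's quasi-likelihood test). ENSG00000142676 was read at 951 and 997.5 CPM in the 3pDE libraries and at 4607 in the 3pDEUMI library, a log2 change of 2.38 ± 0.23. In both genes the 3pDEUMI value was more than 4 times the higher 3pDE value.

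Genes read at a higher level in the 3pDE libraries rose as well. ENSG00000089009 went from 1564 and 1653 CPM to 6794, a log2 change of 2.22 ± 0.22. ENSG00000147403 went from 1257 and 1327 to 5374, a log2 change of 2.20 ± 0.23. ENSG00000089157 went from 2603 and 2222 to 8209, a log2 change of 1.92 ± 0.20, and so became the second highest member of the 3pDEUMI library.

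The rest of the 10 largest rises were spread over low and middle levels. ENSG00000134419 rose by a log2 change of 2.41 ± 0.29, ENSG00000186468 by 2.17 ± 0.33, ENSG00000118181 by 2.07 ± 0.27, ENSG00000138326 by 2.05 ± 0.23 and ENSG00000174444 by 2.05 ± 0.23. ENSG00000186468 is the member in which the 3pDE libraries differed most, and its 3pDEUMI level was still far above both. The other 19 members called higher had log2 changes from 0.80 to 1.91. The largest adjusted p among the 29 was 0.0330 in edgeR's quasi-likelihood test.

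The order of the rises held for reads only. With UMI counts in place of reads for the 3pDEUMI library, the log2 change was 4.45 in ENSG00000134419, 4.24 in ENSG00000186468, 4.07 in ENSG00000156482 and 3.41 in ENSG00000229117, against 2.41, 2.17, 1.69 and 1.74 by reads. That of ENSG00000168028 was 2.55 by UMIs. The UMIs of one library were here set against reads of the others, counted by another program.

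The 5 members called lower had smaller changes than most of those called higher. ENSG00000164587, the member with most reads in both 3pDE libraries, was read at 7495 and 8320 CPM there and at 2992 in the 3pDEUMI library, a log2 change of -1.26 ± 0.22 (adjusted p = 0.00320 in edgeR's quasi-likelihood test). ENSG00000105372, the next highest, was read at 6583 and 7176 CPM and then at 2762, a log2 change of -1.17 ± 0.22 (edgeR adjusted p = 0.00508). The 2 most-read members under the official kit were thus lower in the library in which the share of the set was higher.

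The other 3 were genes of middle level in the 3pDE libraries. ENSG00000140988 was read at 1650, 1248 and 474 CPM, a log2 change of -1.46 ± 0.30 (edgeR adjusted p = 0.00725). ENSG00000167526 was read at 2172, 2138 and 829 CPM, a log2 change of -1.23 ± 0.27 (edgeR adjusted p = 0.00955). ENSG00000063177 was read at 1918, 1623 and 824 CPM, a log2 change of -0.95 ± 0.27 (edgeR adjusted p = 0.0353). In each of the 5 genes the 3pDEUMI library lay below both 3pDE libraries, with the 3pDE libraries closer to each other than to it.

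The 5 members that did not pass are named here after their values were seen. ENSG00000177954 had a log2 change of 0.37 ± 0.21 (4265, 4180 and 4944 CPM), ENSG00000231500 of 0.51 ± 0.20, ENSG00000147604 of 0.53 ± 0.24, ENSG00000166441 of 0.30 ± 0.29 and ENSG00000161016 of -0.55 ± 0.26. Their adjusted p ranged from 0.111 to 0.523 in edgeR's quasi-likelihood test. All 5 were nevertheless outside the range of the 3pDE libraries, and with 1 residual degree of freedom changes of this size did not pass after adjustment.

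**Figure D3:**
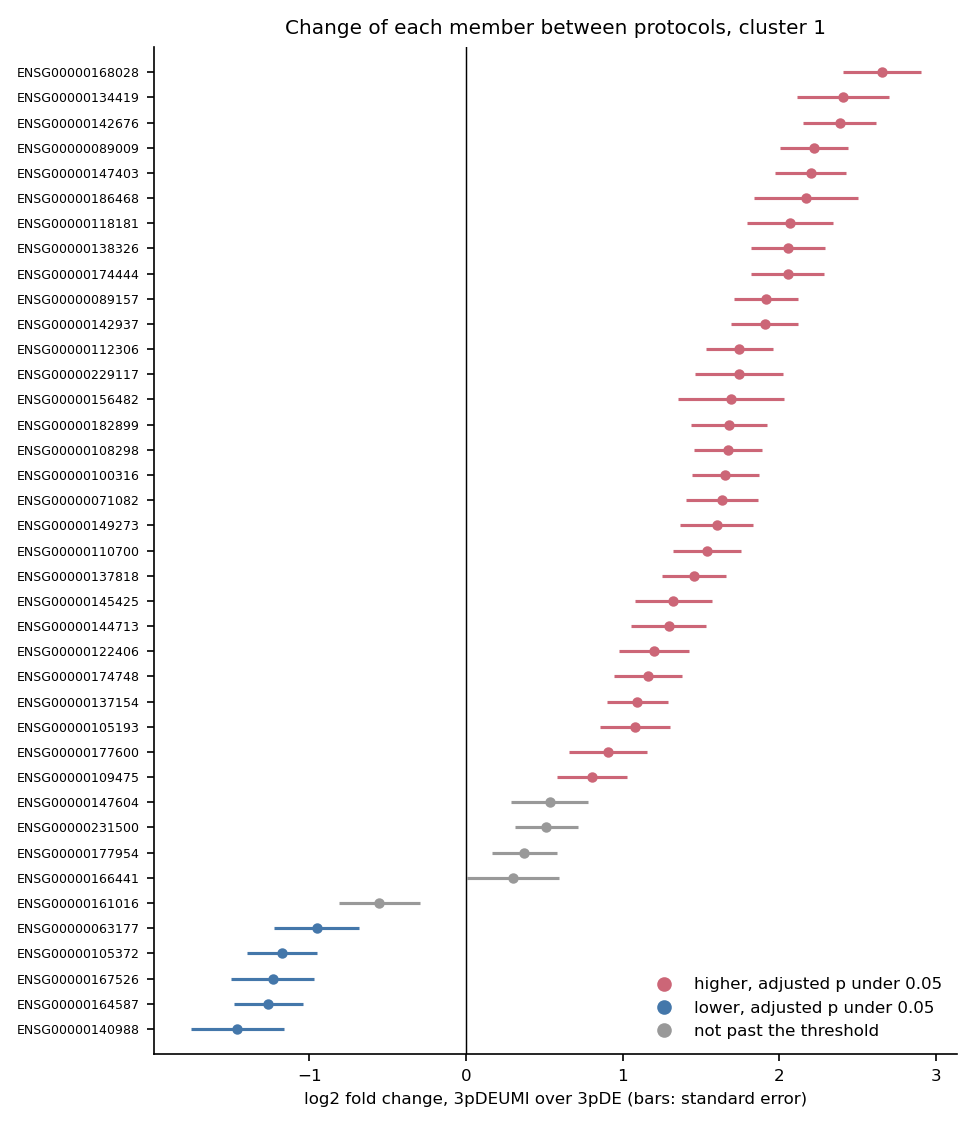
Log2 fold change of each member in cluster 1 (x axis, 3pDEUMI over 3pDE, edgeR's quasi-likelihood fit), with bars of 1 standard error; red points are the 29 members called higher, blue points the 5 called lower and grey points the 5 not past the threshold. Most members lie between 1 and 2.65, and the 5 lower members lie between -1.46 and -0.95.

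The test rests on 2 sums against 1, so the single 3pDEUMI library was assumed to vary as the 3pDE libraries did. With UMI counts in place of reads for the 3pDEUMI library, 25 members were called higher and 3 lower, and CPM values are shares, so that more of some genes means less of all others.

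The wells outside cluster 1 are shown beside these values, as they come from the same libraries. In cluster 2, 31 members were above both 3pDE libraries in the 3pDEUMI library, 6 were below both and 2 lay between. Among human reads in mouse wells the numbers were 32, 6 and 1. ENSG00000164587 was read at 8576, 7733 and 2201 CPM in cluster 2 and at 6309, 7167 and 3536 in mouse wells, so it was lowest in the 3pDEUMI library in both.

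UMIs gave a second reading of the 3pDEUMI library. Cluster 1 wells held a median of 1400.5 human UMIs, and the 39 genes held 186766 UMIs in all. Summed reads divided by summed UMIs gave 12.7 reads per UMI for the members, against 13.9 over all human genes. Gene by gene, the median was 13.8 for the members. It was 16.5 for the 1476 other genes with at least 100 UMIs (quartiles 13.3 and 18.7). The reads and the UMIs were counted by different programs and with different aligner versions, so their ratio is not a measure of amplification alone. For 34 of the 39 members the level by UMIs was within 1 log2 unit of the level by reads, with a median absolute difference of 0.23.

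A small group of members departed strongly between both counts. ENSG00000156482 had 2.63 reads per UMI, ENSG00000186468 had 3.25, ENSG00000134419 had 3.30 and ENSG00000229117 had 4.28, and these 4 are the only members under 5. ENSG00000186468 stood at 1610 CPM by reads and 6860 CPM by UMIs, and ENSG00000134419 at 968 and 4066. All 4 were among the 5 members with the lowest mean level by reads, whereas by UMIs ENSG00000186468 was the fourth highest of the set. At the other end ENSG00000089157 had 19.7 reads per UMI and ENSG00000100316 had 19.2.

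By UMIs, 3 of the 5 members called lower kept the call. ENSG00000140988 and ENSG00000167526 lost it, with log2 changes of -1.12 and -0.90 (edgeR adjusted p = 0.0539 and 0.0719). In CPM of UMIs (UMIs of a gene per 1000000 human UMIs), ENSG00000140988 stood at 609, ENSG00000063177 at 630 and ENSG00000167526 at 1063, and ENSG00000105372 and ENSG00000164587 stood at 2585 and 2760. Their reads per UMI, from 10.8 to 18.1, lay among those of the other members. Together with ENSG00000161016, the members below both 3pDE libraries held 0.873% of human UMIs in cluster 1, close to their 0.911% of reads.

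**Figure D4:**
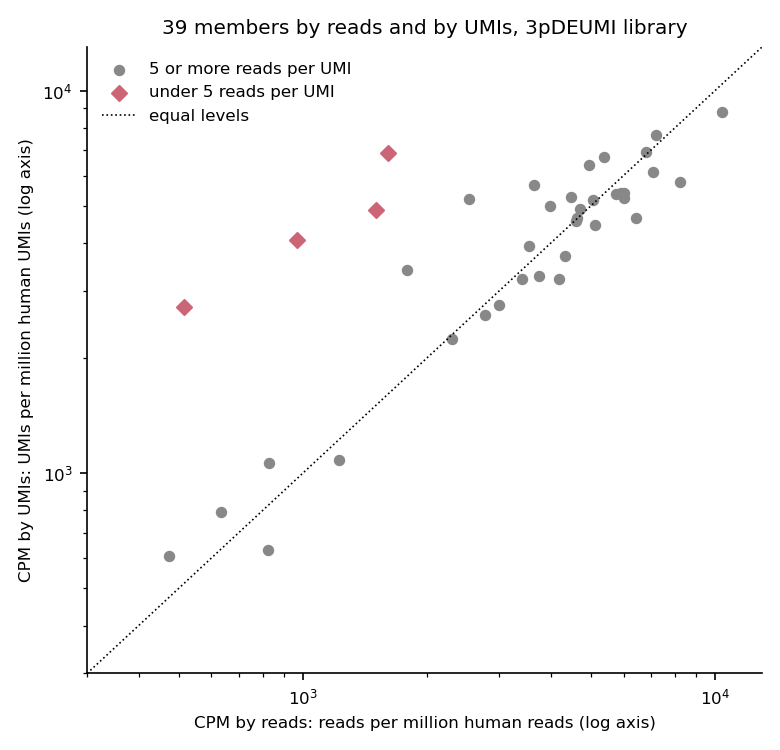
Level of the 39 members in cluster 1 of the 3pDEUMI library in CPM by reads (x axis, logarithmic) and in CPM by UMIs (y axis, logarithmic); the dotted line marks equal levels and red diamonds the 4 members under 5 reads per UMI. Most members lie near the line, and the 4 diamonds lie well above it, with ENSG00000186468 at 1610 CPM by reads and 6860 CPM by UMIs.

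Nearly every well of cluster 1 held reads of nearly every member. The median member was found in 98.5%, 97.1% and 96.4% of wells in 3pDE library 1, 3pDE library 2 and the 3pDEUMI library. All 39 members were found together in 271 wells (66.7%) of 3pDE library 1, in 225 (50.2%) of 3pDE library 2 and in 124 (23.5%) of the 3pDEUMI library. Complete sets were thus rarest in the library in which the set had the largest share of reads. These values depend on depth, and human reads also reach mouse wells, where the median member was found in 9.54%, 47.1% and 15.9% of wells at a median of 75.5, 522 and 96.5 human reads.

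At an equal depth, which library came first varied with that depth. In the 404, 438 and 527 cluster 1 wells with at least 2000 human reads, thinned to 2000, the median member was found in 91.8%, 86.8% and 93.0% of wells. In the 390, 418 and 484 wells thinned to 5000 it was found in 99.0%, 96.9% and 97.5%, with 3pDE library 1 the highest. At 2000 reads, 22 of the 39 members were found more often in the 3pDEUMI library than in both 3pDE libraries, 13 less often than in both, and 4 lay between.

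The 22 members found more often had all been called higher by level. Of the 13 found less often, 6 were the members with a lower level, but 7 had a higher level, and 3 of these had been called higher. These 3 were ENSG00000122406 (93.6%, 88.6% and 88.4% of wells), ENSG00000105193 (91.6%, 92.0% and 88.4%) and ENSG00000109475 (98.3%, 96.8% and 95.8%), named after their values were seen. In each of these 3 genes the exact binomial interval of the 3pDEUMI library overlapped that of a 3pDE library. In ENSG00000122406 it ran from 85.4 to 91.0%, against 85.2 to 91.4% in 3pDE library 2. The intervals therefore do not settle whether these 3 were found less often than in both 3pDE libraries. In each of them the higher level did not come with more frequent detection. ENSG00000166441, whose slightly higher level did not pass the test, was found in 59.9% (54.9 to 64.7), 58.4% (53.7 to 63.1) and 45.5% (41.2 to 49.9). There the interval of the 3pDEUMI library lay below those of the 3pDE libraries.

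Wide gaps in detection were found in both directions. At 2000 reads ENSG00000168028 was found in 65.8% (95% exact binomial interval 61.0 to 70.5), 44.3% (39.6 to 49.1) and 88.6% (85.6 to 91.2) of wells. ENSG00000140988 was found in 88.1% (84.6 to 91.1), 79.0% (74.9 to 82.7) and 33.0% (29.0 to 37.2), and ENSG00000063177 in 92.1% (89.0 to 94.5), 86.1% (82.5 to 89.2) and 38.1% (34.0 to 42.4). In all of these genes the interval of the 3pDEUMI library lay apart from those of both 3pDE libraries. The intervals cover counting error within a library only.

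Without thinning, the largest gaps in detection were found in members with a lower level in the 3pDEUMI library and in 1 with a higher level. ENSG00000063177 was found in 53.8% and ENSG00000140988 in 56.6% of cluster 1 wells of the 3pDEUMI library, against at least 94.9% of wells in either 3pDE library. ENSG00000161016 was found in 98.8%, 98.7% and 68.6% of wells, and ENSG00000166441, whose level was slightly higher in the 3pDEUMI library without passing the test, in 96.1%, 91.5% and 65.3%. ENSG00000156482, the member with the lowest mean level, was found in 82.0%, 71.7% and 82.2% of wells. Members called higher went both ways. ENSG00000177600 was found in 99.3%, 95.1% and 88.3% of wells, ENSG00000122406 in 99.3%, 98.2% and 91.5% and ENSG00000105193 in 98.5%, 98.0% and 92.8%. In contrast, ENSG00000134419 was found in 85.2%, 82.6% and 92.6%.

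**Figure D5:**
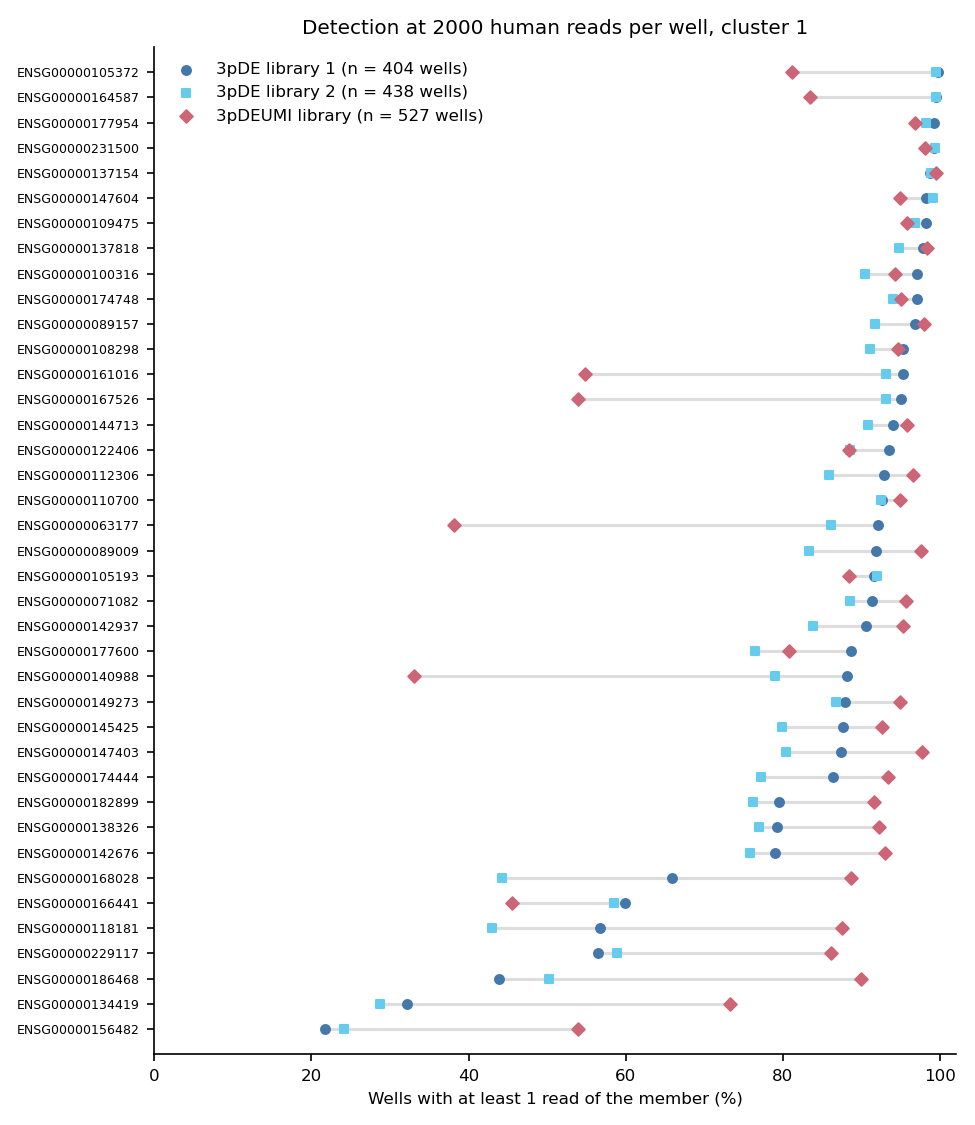
Share of cluster 1 wells with at least 1 read of each member (x axis, %) after thinning each well to 2000 human reads, with 1 point per library and members ordered by detection in 3pDE library 1 (y axis). The 3pDEUMI points lie to the right for many members at the bottom of the order and far to the left for ENSG00000140988 (33.0%) and ENSG00000063177 (38.1%).

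The human clusters differed in a few members of the set. The test used sums per library and cluster with the library as a block, and no tested gene had been used for clustering. In cluster 2, 2 members were higher and 9 lower than in cluster 1 at an adjusted p under 0.05 in edgeR's quasi-likelihood test, and 28 did not pass. Over the 8788 genes tested, 0.751% were called higher and 2.42% lower, against 5.13% and 23.1% of the members. Abundant genes were called more often than all genes between protocols, and no share for abundant genes was worked out between clusters. The members' shares are therefore not set against genes of like level. The members' median log2 change was -0.58 and that of all genes tested was -1.67, while the share of human reads held by the set was lower in cluster 2 in each of the 3 libraries. Cluster 2 wells were several times shallower than cluster 1 wells in every library, and the part of depth in these differences was not tested.

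ENSG00000177954 and ENSG00000137818 were the members called higher in cluster 2. ENSG00000177954 was read at 4265, 4180 and 4944 CPM in cluster 1 and at 10054, 7835 and 7125 in cluster 2, a log2 change of 0.85 ± 0.17 (edgeR adjusted p = 8.83e-05). ENSG00000137818 was read at 3005, 2702 and 7072 CPM in cluster 1 and at 5131, 4787 and 11021 in cluster 2, a log2 change of 0.70 ± 0.18 (edgeR adjusted p = 0.00695). Both were higher in cluster 2 in each of the 3 libraries.

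The strongest fall was that of ENSG00000140988, read at 1650, 1248 and 474 CPM in cluster 1 and at 502 and 74.5 in cluster 2 of the 3pDE libraries. In cluster 2 of the 3pDEUMI library it had 0 reads in 191718 human reads, which allows a level of up to 15.6 CPM. Its fitted log2 change was -3.91 ± 0.68 (edgeR adjusted p = 2.29e-06), a value that depends on how the count of 0 is treated. ENSG00000168028, the member with the largest rise between protocols by reads, was read at 201, 41.5 and 1784 CPM in cluster 2. Its log2 change from cluster 1 was -2.14 ± 0.44 (edgeR adjusted p = 0.000162). In both genes cluster 2 lay below cluster 1 in each library.

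The remaining 7 falls were smaller. Only ENSG00000122406 and ENSG00000145425 of these 7 lay below the median log2 change of -1.67 over all genes tested. ENSG00000122406 had a log2 change of -1.87 ± 0.33, ENSG00000145425 of -1.69 ± 0.43, ENSG00000174444 of -1.31 ± 0.34, ENSG00000089009 of -1.10 ± 0.28 and ENSG00000089157 of -1.05 ± 0.24. ENSG00000112306 had a log2 change of -0.83 ± 0.25 and ENSG00000137154 of -0.78 ± 0.18. ENSG00000112306 was read at 1998, 1984 and 6031 CPM in cluster 1 and at 1218, 539 and 7005 in cluster 2, so that it was lower in cluster 2 only in the 3pDE libraries. The 28 members not called had log2 changes from -1.18 to 0.63.

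These calls between clusters depended on single libraries. Without 3pDE library 1, which held 127 of the cluster 2 wells, 0 of the 39 members were called in either direction by edgeR's quasi-likelihood test, with 0 higher and 3 lower at an unadjusted p under 0.05. DESeq2 on all libraries called 1 lower (ENSG00000140988) and 0 higher, with the same numbers at an unadjusted p under 0.05. Without the 3pDEUMI library 2 members were called higher and 3 lower, with a median log2 change of -0.23 over the 39 genes, and without 3pDE library 2 the numbers were 1 and 12. Without the library as a block 0 were called, with 1 higher and 1 lower at an unadjusted p under 0.05 in edgeR's quasi-likelihood test. Counted by direction alone, 20 members were lower in cluster 2 in all 3 libraries, 3 were higher in all 3 and 16 differed in direction between libraries.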

How the data were processed

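The authors aligned the reads of each library with STAR 2.7.0b to hg19 and mm10 joined in one reference, inside the mappa software, and deposited raw read counts per gene and well, with UMIs not collapsed. For the 3pDEUMI library they also deposited UMI counts, made with the Drop-seq tools and STAR 2.4.2a. Per the methods, reads had first been downsampled towards a common depth, and the deposited totals still ranged from 35581264 to 109702878 reads. How reads shared with near-identical copies were counted is not given in the sources used here.

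Wells with at least 1000 reads and 200 genes were kept (404 to 527 cluster 1 wells per library were deep enough for thinning to 2000 reads). Human wells of all libraries were clustered together with scanpy 1.11.5 (1000 variable genes, 20 components, 15 neighbours, Leiden resolution of 0.1) without the 39 genes. Wells of 1 species were not screened further for doublets. The sums of reads over the wells of a cluster in each library were tested with edgeR 4.0.16 (filterByExpr, TMM, two-sided quasi-likelihood F-test) at a threshold of 0.05 after Benjamini-Hochberg adjustment over every human gene tested. The 1000 variable genes were left out of the comparison of clusters. SE is the absolute log2 change divided by the square root of F. DESeq2 1.42.0, other scalings and filters, other sets of wells, UMI counts and leaving out each library were the alternatives. The fits were also run on simulated data, whose results are not given here. Named with values were the members called in a comparison, at most 10 per direction, and those with the 5 highest and 5 lowest mean levels. The members and lists were chosen with earlier results of these data known. Intervals are exact binomial at 95%, the limit for a count of 0 is 3 reads, and both cover counting error only, since reads are not independent molecules. Because no identifier could be paired with a symbol, the marker lists, the lists of other ribosomal and translation genes, the members planned by role and the alternatives without mitochondrial genes were not used here, and only the 39 genes were left out of the clustering.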

Additional observations from a re-analysis of the deposited data

Results flagged for a closer look

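The UMI table of the 3pDEUMI library held 3000 barcodes, of which 1543 had no column in the read table and entered no comparison. They carried 25843 human UMIs, and 4180 of these belonged to the 39 ribosomal protein genes, a share of 16.2% (95% exact binomial interval 15.7 to 16.6), beside 17.0% in cluster 1 wells of the same library. This was singled out because it is signal in barcodes outside the comparisons, and no control wells were identified here to set it against. The read tables held 1704, 1518 and 1560 barcodes in 3pDE library 1, 3pDE library 2 and the 3pDEUMI library. The labels give 1684, 1498 and 1465 processed wells, and what the further barcodes are is not given.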

How the results depend on the processing

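Between protocols, all 39 members kept the direction of their log2 change under every alternative run: DESeq2, plain totals, scaling factors without the members, no filter, UMI counts, deeper wells, purer wells, thinned wells, all human wells and without either 3pDE library. The number called higher stayed between 25 and 31, and the number called lower between 3 and 6, the 3 with UMI counts for the 3pDEUMI library. The median log2 change over all genes tested moved from -0.11 to -0.25 with plain totals and to -0.06 with DESeq2, and changes are relative to it. Without either 3pDE library no spread between libraries remained, and the members' median log2 change was 1.47 without 3pDE library 1 and 1.54 without 3pDE library 2, with no test. The gap in share between the 3pDEUMI library and the 3pDE mean, 7.27 percentage points in human wells, was 6.94 as a median over wells, 7.13 in wells with under 5% of the other species and 8.65 by UMIs. The gap in detection of the median member was -1.41 percentage points and turned to 3.68 at 2000 reads per well, but was -0.41 at 5000.

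Between clusters, members called higher and lower numbered 0 and 1 with DESeq2, 0 and 0 without the library block, and 2 and 14 with no filter. Called higher was 1 member in wells with at least 5000 reads, in wells with under 5% of the other species and with the clustering genes kept. Leaving out 1 library each gave 0 to 2 called higher and 0 to 12 lower, lowest without 3pDE library 1 and 3 lower without the 3pDEUMI library, with a median change from -0.63 to -0.23. No called member changed its direction under any of these alternatives. The cause of these changes was not tested. No paired analysis was possible because the 3pDEUMI group had 1 library. The alternatives without mitochondrial genes and with wells assigned by markers were not run, since they need gene symbols. Shallow cluster 2 wells, down to 191718 human reads summed in the 3pDEUMI library, limit what can be said of low members there.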
